A study of Mus musculus with 5 samples.

Results

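The peaks described here are those called on autosomes 1 to 19, with a region start at or above 3500000 bp, that the authors placed inside an annotated gene. A peak was taken as inside a gene when the deposited 5' or 3' distance to that gene was 0. There were 249 such peaks among the 857 of the wild-type (WT) H3K27ac list, 239 among the 844 of the EGR1-deficient (KO) H3K27ac list and 248 among the 847 of the WT EGR1 list, or 736 of 2548 in all. In each list 2 peaks had 2 host genes. The peaks fell in 214 distinct host genes, 195 in the WT H3K27ac list, 189 in that of KO and 194 in that of EGR1. In the same order they made up 41.0% (95% Wilson interval 37.2 to 45.0), 41.6% and 41.1% of the autosomal peaks from 3500000 bp on, and the intervals cover counting error over peaks only.

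Acetylation of lysine 27 on histone H3 (H3K27ac) is a chromatin mark of active promoters and enhancers, and inside a gene it is typically found around the start site and at intragenic enhancers. EGR1, a transcription factor with zinc fingers, is made within minutes of many stimuli and binds GC-rich sites, often close to start sites. In dendritic cells, bacterial lipopolysaccharide (LPS) is known to induce cytokine, chemokine and interferon-response genes, whose promoters and enhancers gain this mark.

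The lists come from chromatin immunoprecipitation and sequencing of dendritic cells that were derived from the bone marrow of C57BL/6J mice. Marrow cells were grown with 10 ng/ml GM-CSF and collected on day 6, and the cells of every group were treated for 24 h with 100 ng/ml LPS and 20 mM L-lactic acid. The groups used here were WT cells precipitated for H3K27ac, EGR1-deficient cells precipitated for H3K27ac, and WT cells precipitated for EGR1. The 2 input DNA samples, WT and KO, were left out of the comparisons and are not analysed here. The labels do not say how the EGR1 deficiency was made, how many mice gave marrow or whether cultures were separate. With 1 library per group no difference between lists has a replicate check, no test was run, and the depth of the libraries is unknown. The peak shape score of each peak is the authors' own, and it ranks peaks within a list and is set side by side between lists only as a description. Where 3 values follow each other, they are in the order WT H3K27ac, KO H3K27ac, EGR1.

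Few of these peaks lay near a start site, so sequences around start sites that a peak did touch are shown first. RefSeq windows from 250 bases before to 50 bases after a start site (GRCm38.p6, the assembly of mm10) were touched by 9 WT H3K27ac, 7 KO H3K27ac and 9 WT EGR1 peaks. The windows touched in any list numbered 12 of 32851 and belonged to 10 genes. The 4 windows below are those of Gm13822, Gm15564, Hjurp and Tmem267. Gm13822 and Gm15564, both long noncoding RNA genes, are the highest-scoring hosts with a peak that touches a window of their own. The Gm13822 peak lay upstream of the gene's RefSeq span (114917318 to 114922261) and not over its start site. Hjurp encodes a chaperone of the centromeric histone CENP-A, and Tmem267 is a transmembrane protein gene. Each is printed 5′ to 3′ on the strand of the gene, and the capitals mark the bases that lie under the WT H3K27ac peak. The window of Gm13822 is chr5:114922212-114922511 on the minus strand, with 149 bases under a peak scoring 18.13.
Gm13822: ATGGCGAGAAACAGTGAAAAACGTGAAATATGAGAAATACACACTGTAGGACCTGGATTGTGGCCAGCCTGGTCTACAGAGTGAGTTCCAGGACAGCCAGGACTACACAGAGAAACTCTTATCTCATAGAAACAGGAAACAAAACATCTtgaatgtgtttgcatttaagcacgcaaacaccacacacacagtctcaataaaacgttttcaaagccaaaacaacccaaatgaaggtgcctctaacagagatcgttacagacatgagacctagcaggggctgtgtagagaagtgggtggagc
The window of Gm15564 is chr16:35981798-35982097 on the minus strand, with 93 bases under a peak scoring 7.36.
Gm15564: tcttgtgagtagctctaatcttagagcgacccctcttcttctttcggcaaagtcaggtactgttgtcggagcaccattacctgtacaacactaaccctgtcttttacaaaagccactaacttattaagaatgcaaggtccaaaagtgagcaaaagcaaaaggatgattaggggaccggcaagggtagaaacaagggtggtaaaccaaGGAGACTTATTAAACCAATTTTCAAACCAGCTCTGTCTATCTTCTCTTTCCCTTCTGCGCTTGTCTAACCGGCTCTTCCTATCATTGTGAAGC
The window of Hjurp is chr1:88277530-88277829 on the minus strand, with 116 bases under a peak scoring 2.29.
Hjurp: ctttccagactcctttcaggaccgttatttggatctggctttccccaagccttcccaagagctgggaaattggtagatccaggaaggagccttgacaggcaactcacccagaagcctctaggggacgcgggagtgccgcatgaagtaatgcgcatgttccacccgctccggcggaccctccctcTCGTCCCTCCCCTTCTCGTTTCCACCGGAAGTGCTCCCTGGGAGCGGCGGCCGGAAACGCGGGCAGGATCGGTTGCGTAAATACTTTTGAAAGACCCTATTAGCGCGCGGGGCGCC
The window of Tmem267 is chr13:119488223-119488522 on the plus strand, with 207 bases under a peak scoring 3.43, for which the authors name 3110070M22Rik as the host gene.
Tmem267: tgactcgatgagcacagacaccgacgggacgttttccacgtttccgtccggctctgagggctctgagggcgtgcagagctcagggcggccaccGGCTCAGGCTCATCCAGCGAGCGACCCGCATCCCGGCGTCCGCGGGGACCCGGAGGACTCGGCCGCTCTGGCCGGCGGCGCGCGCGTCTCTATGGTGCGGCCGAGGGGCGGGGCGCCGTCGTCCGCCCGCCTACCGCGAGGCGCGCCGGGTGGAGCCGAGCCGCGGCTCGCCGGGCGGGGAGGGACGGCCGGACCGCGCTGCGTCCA

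These windows differed in base composition. G and C made up 44.3% of the Gm13822 window, 43.7% of the Gm15564 window, 59.7% of the Hjurp window and 76% of the Tmem267 window, against a median of 52.7% over all 32851 windows. The sequence GCGTGGGCG, the core EGR site, was searched on both strands and stood in none of the 12 touched windows and in 0.612% of all windows. The variant GCGGGGGCG stood in 1 of the 12, another window of Tmem267 that is not printed, and in 2.91% of all windows. TATAAA stood in none of the 12 and in 13.6% of all, and CCAAT in 5 of the 12 and in 37.4% of all. The 5 include overlapping windows of Gm15564, starting at 35981798 and 35981800, so they are not 5 separate sequences. These searches describe letters in the windows and were not read as binding sites.

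One peak present in every list covered a small RNA gene, Mir6236, on chromosome 9 (110281175 to 110281495 in WT H3K27ac). The peak spans the whole RefSeq gene, 110281287 to 110281409, and scored 6.31 in WT and 6.87 in KO H3K27ac, and 6.03 in the EGR1 list. The RefSeq mature sequence, chr9:110281353-110281371 on the plus strand, is shown with its seed (bases 2 to 8) in capitals.
mmu-miR-6236: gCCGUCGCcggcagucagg
This seed belonged to 1 of the 1738 mature miRNAs in the table, mmu-miR-6236 itself.

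By type, the host genes were mostly protein-coding. Of the 214, 153 (71.5%) were protein-coding in RefSeq, 11 were long noncoding RNA genes, 9 were pseudogenes and 4 were genes of small or structural RNAs. The other 37 names did not match RefSeq, and 25 of them were predicted genes with a Gm number. In all, 41 of the 214 hosts carried a Gm number and 11 a Rik name. Among the 177 hosts that RefSeq holds, 86.4% (80.6 to 90.7) were protein-coding, against 44.1% of the 46468 autosomal RefSeq genes from 3500000 bp on. Pseudogenes were 5.08% of these hosts and 20.0% of those genes, and long noncoding RNA genes 6.21% and 26.4%. The 177 leave out the 37 unmatched names. With hosts taken from RefSeq coordinates instead, 69.4% of 291 were protein-coding. Gene length was not accounted for in these shares.

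**Figure D1:**
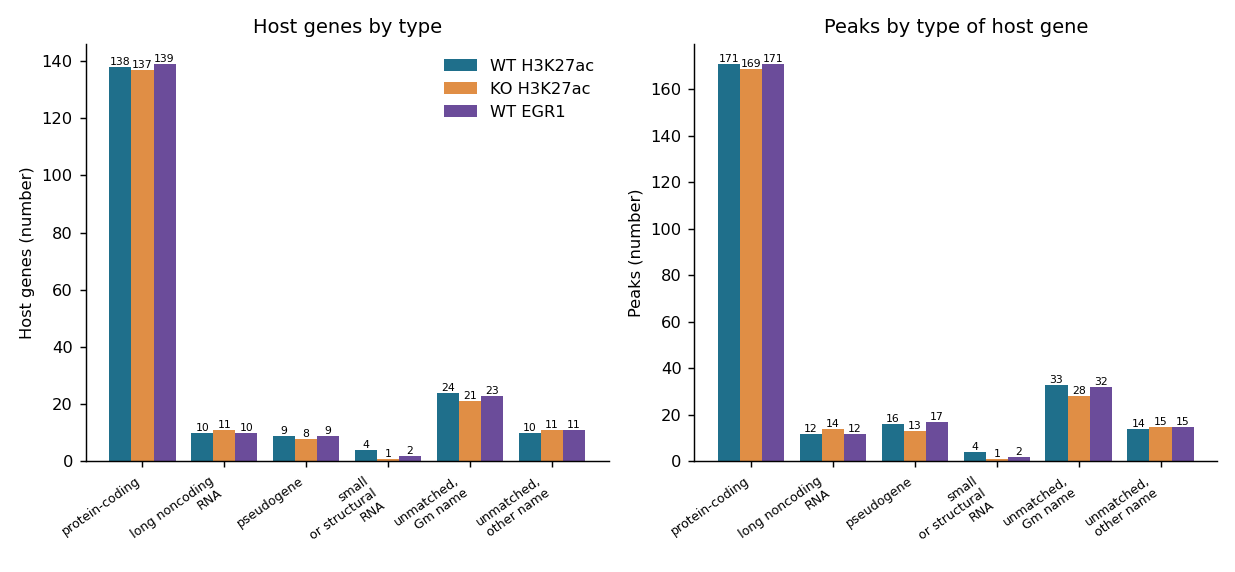
Number of host genes (left) and of peaks (right) by type of host gene, in each of the 3 lists; a peak with hosts of 2 types is counted in both. Protein-coding genes held 171, 169 and 171 peaks, and unmatched genes with a Gm name 33, 28 and 32.

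The 3 lists had a similar makeup by type, apart from the few small or structural RNA genes, as the plot of host types shows. Protein-coding hosts held 171 peaks in the WT H3K27ac list, 169 in that of KO and 171 in that of EGR1, with median scores of 3.0, 2.96 and 2.91. Long noncoding RNA hosts held 12, 14 and 12 peaks, with medians of 2.75, 2.17 and 2.76. Pseudogenes held 16, 13 and 17 peaks, with medians of 2.215, 2.19 and 2.14, and none of their peaks scored 10 or more. The unmatched Gm genes held 33, 28 and 32 peaks, with medians of 3.09, 4.175 and 2.88. Of the hosts, 122 of the 153 protein-coding genes, 10 of the 11 long noncoding RNA genes, 8 of the 9 pseudogenes, 20 of the 25 unmatched Gm genes and 10 of the 12 other unmatched genes had a peak in every list. The 4 small or structural RNA genes held 4, 1 and 2 peaks, and 1 of the 4 had a peak in every list.

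The top 2 host genes by score were unmatched in RefSeq, and further unmatched or predicted genes scored above 17 in every list. AC160116.1 on chromosome 9 scored 33.17 in WT H3K27ac, 32.57 in KO and 32.42 in EGR1, and in RefSeq its peak lay over the long noncoding RNA gene Gm33838. Gm10801 on chromosome 2 held 3 peaks in each list, scoring 31.06, 30.05 and 30.35 at the highest, and none of its WT H3K27ac peaks lay over a RefSeq gene. Its neighbour Gm10800 held 2 peaks in each list, with highest scores of 19.05, 19.81 and 18.98. Gm13822, the long noncoding RNA gene printed above, scored 18.13, 17.91 and 18.01, at peaks outside its RefSeq span. Gm21738 on chromosome 14 held 5 peaks in each list within 3268 bp in WT H3K27ac, scoring 18.1, 18.1 and 17.58 at the highest. AC160116.1, Gm10801 and Gm10800 held the same order in every list.

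The protein-coding hosts with the highest scores were genes of varied function, most of them with 1 peak. Ank1, which encodes the erythrocyte membrane anchor ankyrin, scored 25.07 in WT H3K27ac, 23.16 in KO and 24.44 in EGR1. Litaf, an LPS-induced regulator of inflammatory cytokine genes, scored 21.43, 20.45 and 21.18, and Cdk5rap2, a centrosome protein gene, 19.85, 20.55 and 19.53. 2210408I21Rik on chromosome 13 held 2 peaks in each list, 133675 bp apart in WT H3K27ac. The higher of them (77438822 to 77439142) scored 21.91 in WT H3K27ac, 22.14 in KO and 21.61 in EGR1, and the lower 4.39, 4.38 and 4.2. Spag17, which encodes a protein of the central apparatus of motile cilia, held a peak on chromosome 3 (99981095 to 99981421) scoring 20.55, 18.47 and 20.09. The KO value was the lowest of the 3 at Ank1, Litaf and Spag17, while at Cdk5rap2 and the higher peak of 2210408I21Rik it was the highest.

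Mdga2, a synaptic adhesion gene of 763131 bp, held the longest peak in WT H3K27ac, 476 bp, on chromosome 12 (67059251 to 67059726). It scored 16.19 in WT and 14.49 in KO H3K27ac, and 15.69 in the EGR1 list, and the KO peak was 370 bp long. Zc3h7a, a zinc finger gene on chromosome 16 (peak at 11143962 to 11144288), scored 16.15, 14.95 and 16.37. Cmss1, a gene on the same chromosome (57391384 to 57391721), scored 15.69, 15.59 and 15.75. Mamdc2 scored 13.96, 13.49 and 13.86, Gm525 scored 12.2, 11.9 and 12.22, and Kctd16, an auxiliary subunit of GABA-B receptors, scored 11.05, 10.75 and 11.09. At each of these 6 genes the EGR1 score lay nearer to the WT H3K27ac score than the KO score did.

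A second tier of protein-coding hosts scored between 7 and 11 in WT H3K27ac. Peak1, a pseudokinase gene of the cytoskeleton, scored 10.14 in WT H3K27ac, 8.98 in KO and 9.9 in EGR1. A single peak on chromosome 1 (193227711 to 193228030) was assigned to both Hsd11b1, which encodes the enzyme that regenerates active glucocorticoid, and Lamb3, a laminin chain gene. It scored 8.84, 8.82 and 8.75, and RefSeq places it inside Hsd11b1 and outside Lamb3. Aida scored 8.58, 8.81 and 8.29, Lars2, the mitochondrial leucyl-tRNA synthetase gene, scored 7.97, 8.22 and 7.56, and Fbxw4 scored 7.91, 6.39 and 7.38. Fbxw4 and Peak1 had their lowest score in KO, and Aida and Lars2 their highest.

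Host genes with several peaks were few but held about 1 peak in 3. In WT H3K27ac 171 genes held 1 peak and 24 held more, in KO H3K27ac 170 and 19, and in WT EGR1 170 and 24. Genes with more than 1 peak held 80 (32.1%), 71 (29.7%) and 80 (32.3%) of the peaks. Merging peaks within 10 kb left 189, 184 and 188 loci. The median score of peaks that shared a gene was 2.825, 2.97 and 2.81, against 2.96, 2.72 and 2.825 for peaks alone in their gene. Peaks of 1 gene share a locus and are not independent.

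The genes with the most peaks held them in tight runs or over long stretches. Tmem267 held 12 peaks in each list within 7933 bp in WT H3K27ac. Tcte2 held 9, 10 and 9 peaks over 104438 bp, and the peaks lie outside the RefSeq gene of that name. C130026I21Rik held 7, 4 and 6 peaks and Smo, the Hedgehog signal transducer, 3 in each list. The pseudogene Gm2619 held 4 peaks in the WT H3K27ac list, 1 in that of KO and 5 in that of EGR1, with highest scores of 3.22, 2.16 and 2.93. By RefSeq coordinates, 2 of the 10 peaks assigned to Gm2619 over the 3 lists and 7 of the 17 assigned to C130026I21Rik lay over the gene named. The highest WT H3K27ac peak assigned to Gm2619 lay inside the RefSeq span of C130026I21Rik. Duxf3, a member of the double homeobox family, held 2, 4 and 1 peaks, with highest scores of 1.74, 2.27 and 1.73. Pisd, a phosphatidylserine decarboxylase gene, held 2, 3 and 2, and the pseudogene Gm2420 held 3, 4 and 3. Median scores in Gm2619 were 1.805, 2.16 and 1.72, and in Duxf3 1.73, 2.195 and 1.73. The lowest score of each list was 1.65.

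Some further hosts with several peaks had the same count in each list. Eef2, which encodes translation elongation factor 2, held 2 peaks within 898 bp on chromosome 10, with highest scores of 4.3 in WT H3K27ac, 4.33 in KO and 4.28 in EGR1. Speer4cos, a pseudogene on chromosome 5, held 3 peaks scoring at most 2.36, 2.1 and 2.41. CT010467.1 on chromosome 17 held 3 peaks within 1814 bp, with highest scores of 10.24, 10.49 and 9.94. In RefSeq its WT H3K27ac peaks lay over Rn18s-rs5, a ribosomal RNA pseudogene, and AY036118.

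Further peaks lay over genes of structural RNAs, some of them under names that RefSeq does not hold. Rn7s6 scored 2.44 in WT and 1.98 in KO H3K27ac, and 2.24 in the EGR1 list, and n-R5-8s1 scored 4.65, 4.67 and 4.42. AC157822.1, whose peak lay over the RefSeq gene Rn7s2, scored 2.52, 2.04 and 2.29. Rn7s1 was listed in WT H3K27ac at 2.29 and in WT EGR1 at 1.98 and not in KO H3K27ac. Rny1, a Y RNA gene, at 1.72 and n-R5s194 at 1.84 were listed in WT H3K27ac alone. These genes were chosen after their values were seen.

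The WT and KO H3K27ac lists were compared next, which asks whether the same places inside genes were listed when EGR1 was missing. Most were. Of the 249 WT peaks, 216 (86.7%, 82.0 to 90.4) overlapped a KO peak by at least 1 bp, and of the 239 KO peaks, 216 (90.4%, 86.0 to 93.5) overlapped a WT peak. The 33 WT peaks with no KO partner stand beside 13.2% of the whole WT list, and the 23 KO peaks with no WT partner beside 11.7% of the whole KO list. The shares inside genes were thus close to those of the lists they came from. Between genes, 83.5% (79.3 to 87.0) of the 358 WT and 89.3% (85.5 to 92.1) of the 335 KO peaks were found in the other H3K27ac list.

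Whether a peak was found in the other list went with its score. Of the 120 WT peaks scoring 3 or more, 120 overlapped a KO peak, and of the 113 such KO peaks, 113 overlapped a WT peak. From a score of 2 to under 3 the counts were 71 of 80 (88.8%) and 73 of 76 (96.1%). Under 2 they were 25 of 49 (51.0%, 37.5 to 64.4) and 30 of 50 (60%, 46.2 to 72.4). The WT peaks missing from KO had a median of 1.84 and reached 2.73, and the KO peaks missing from WT had a median of 1.78 and reached 2.35. Peaks are listed only above a threshold, so a missing peak is not shown to be absent.

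**Figure D2:**
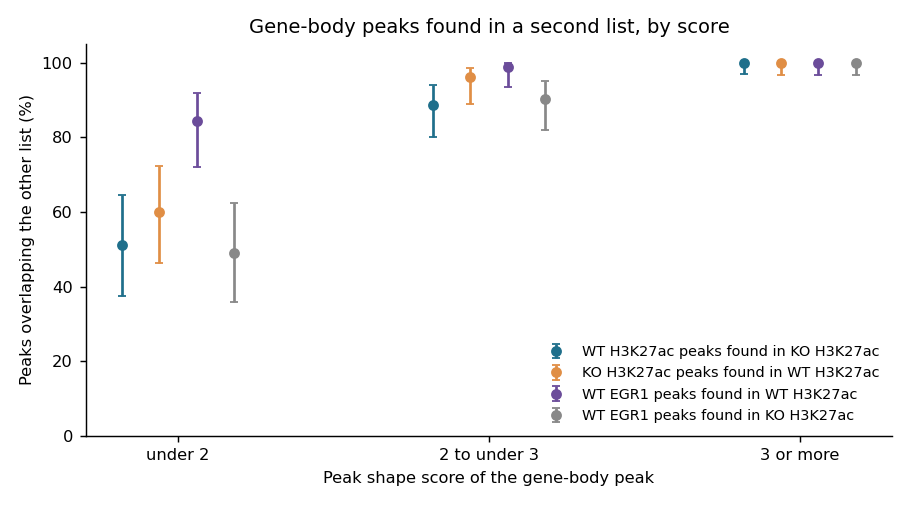
Share of gene-body peaks that overlap a peak of a second list (%), by the peak shape score in their own list; points are shares and bars 95% Wilson intervals over peaks. The 4 shares are 100% at a score of 3 or more and lie between 49.0% and 84.3% under 2.

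Counted by gene, 171 of the 214 hosts had a peak in every list. Of the 195 WT H3K27ac hosts 20 were not in KO, of which 16 were also in WT EGR1. Of the 189 KO H3K27ac hosts 14 were not in WT, of which 2 were in WT EGR1. Counted by peak, 13.2% of the whole WT and 11.7% of the whole KO H3K27ac list overlapped no peak of the other. The protein-coding host with the highest score among the 20 in WT and not KO was Wbp11, which encodes a WW domain-binding protein of the spliceosome (chromosome 6, 136816658 to 136817011). It scored 2.73 in WT H3K27ac and 2.6 in WT EGR1. Trp73, a p53 family transcription factor gene, followed with 2.21 and 2.04, Pacs1, a sorting protein gene, with 2.13 and 1.78, and Sos2, a Ras exchange factor gene, with 2.05 and 2.04. Muc19, a gel-forming mucin gene, held 2 peaks with highest scores of 2.05 and 2.1. RefSeq matched this name only as an older symbol of Smgc, and the peaks lay outside the Smgc span. Spata5 scored 1.98 and 1.79, Mctp1 1.97 and 1.97, and Washc2, a subunit gene of the WASH complex on endosomes, 1.9 and 1.96. Each of these 8 genes was also listed in WT EGR1. Of all gene-body peaks, 239 of 249 in WT H3K27ac (96.0%) and 214 of 239 in KO H3K27ac (89.5%) overlapped an EGR1 peak. Under a score of 2 these were 39 of 49 and 29 of 50. In the whole lists 4.08% of WT and 11.8% of KO H3K27ac peaks overlapped no EGR1 peak.

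The protein-coding hosts listed in KO and not WT H3K27ac scored 1.97 or lower, a range that overlaps that of the genes above. Efna5, an ephrin ligand gene, scored 1.97 in KO H3K27ac and 1.72 in WT EGR1, and Timd2, a T cell immunoglobulin and mucin family gene, 1.82 and 1.67. Zfp791 scored 1.9, Mpnd 1.8, Inpp5a, an inositol phosphatase gene, 1.79, Ntm, a neural adhesion gene, 1.76, Myo1d, an unconventional myosin gene, 1.73 and Capn8, a calpain gene, 1.71. These last 6 were listed in KO H3K27ac alone. The peak assigned to Mpnd lay outside the RefSeq span of that gene and shared 132 bases with a start-site window of Stap2. All of these scores lie near the lowest listed score of 1.65.

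Where a peak was present in both H3K27ac lists, its score was similar. Over 214 peaks matched one to one, the KO score minus the WT score had a median of -0.07 and quartiles of -0.38 and 0.1675. KO was lower at 120 peaks, higher at 92 and equal at 2. Spearman's rho between the scores was 0.940 over these 214 peaks, which share loci and a listing threshold. Of the 10 highest-scoring WT peaks 9 were among the 10 highest of KO, and of the 50 highest 47 were among the 50 highest. The scaling of the score by library was not stated, so these differences are not read as differences in acetylation.

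The widest gaps in score were at peaks already named and at a few others. The second peak of Gm10800 scored 11.94 in WT H3K27ac, 9.81 in KO and 11.42 in EGR1. Among the 118 peaks that were matched in every list and scored 3 or more in WT H3K27ac, the KO to WT ratio ran from 0.671 at 3110070M22Rik (3.43, 2.3 and 3.56) to 1.34 at Gm29216 (3.25, 4.35 and 2.91). Gm2619 (3.22, 2.16 and 2.93) and C130026I21Rik (4.23, 2.95 and 4.47) were near the lower end. A peak of Tmem267 scored 3.86, 5 and 3.76, and a peak of Smo, with a wide difference but a ratio of 1.16, scored 8.14, 9.45 and 8.01. KO was lower at 68 of the 118 and higher at 49. Over all 209 peaks matched in every list, the ratio ran from 0.671 to 1.51. The highest was at a peak of Pisd (1.97, 2.98 and 2.05).

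**Figure D3:**
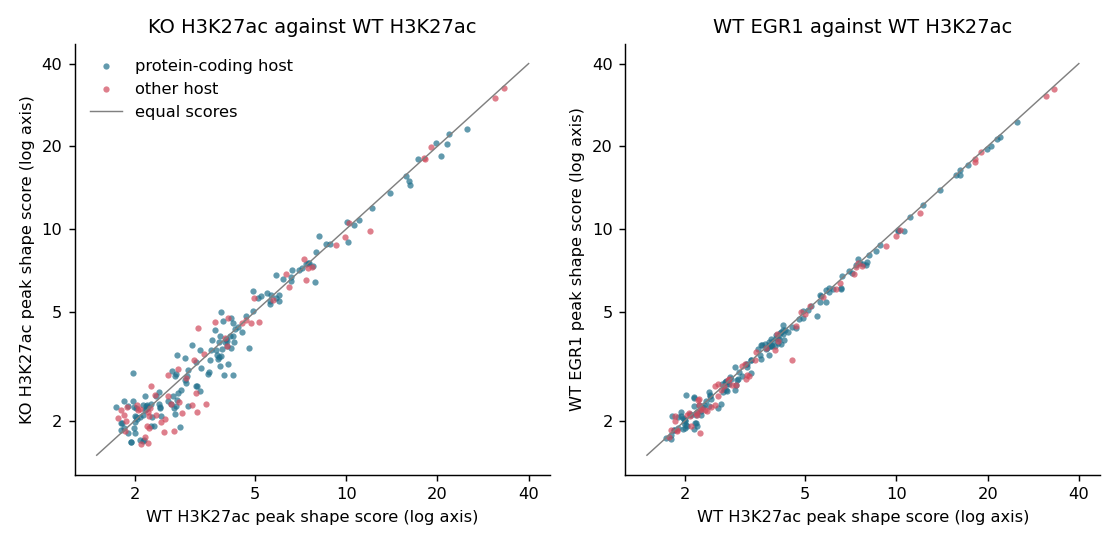
Peak shape score of the 209 gene-body peaks matched in all 3 lists, on log axes, for KO H3K27ac (left) and WT EGR1 (right) against WT H3K27ac; each point is 1 peak, coloured by whether its host is protein-coding. The KO points lie farther from the line of equal scores, with a median absolute difference of 0.3 against 0.13 for EGR1.

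Peak length differed between the H3K27ac lists more regularly than score did. The median length was 324 bp in WT H3K27ac (quartiles 319 and 340), 310 bp in KO H3K27ac (304 and 328) and 324 bp in WT EGR1 (317 and 341). Lengths of at least 300 and under 350 bp made up 180 of 249, 171 of 239 and 179 of 248 peaks. Over the 214 matched peaks, KO minus WT had a median of -13 bp, and the KO peak was shorter at 173, longer at 40 and equal at 1. The centres of these pairs lay a median of 7 bp apart, and 137 of 214 lay within 10 bp. Between genes the median lengths were 322 bp, 308 bp and 321 bp, so the shorter KO peaks were not limited to genes. Length and score were almost unrelated across peaks, with Spearman's rho of -0.013 over 249, 0.038 over 239 and -0.045 over 248.

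**Figure D4:**
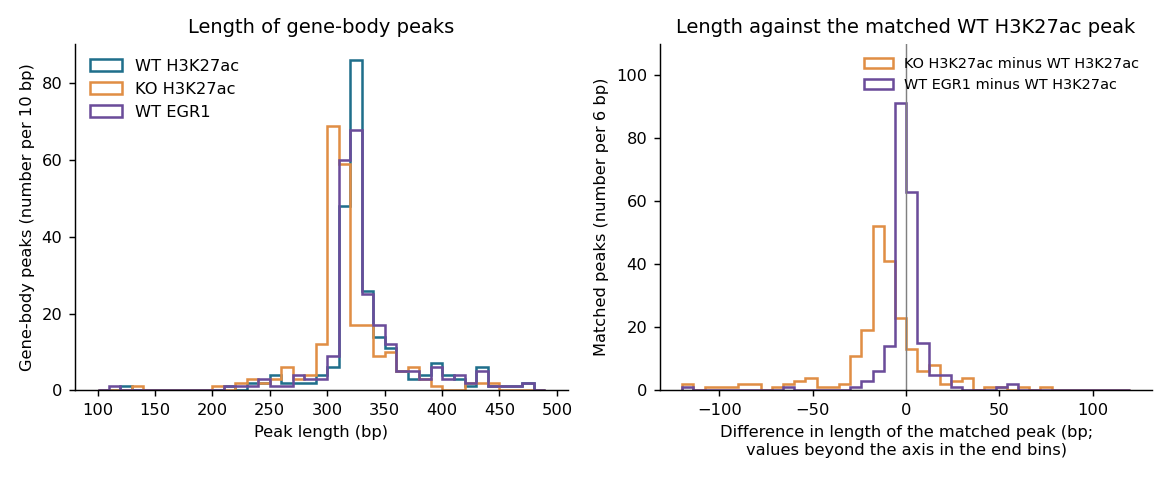
Left, length of gene-body peaks in bp in each list, in bins of 10 bp; right, length of the KO H3K27ac or WT EGR1 peak minus that of the matched WT H3K27ac peak, in bins of 6 bp, over the 209 peaks matched in all 3 lists. The KO lengths centre below those of the other lists, with medians of 310 bp in KO H3K27ac and 324 bp in both WT lists.

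The EGR1 list was set beside the H3K27ac lists, which asks how far the places called for EGR1 inside genes were also called for H3K27ac. Of the 248 EGR1 peaks, 239 (96.4%, 93.2 to 98.1) overlapped a WT H3K27ac peak and 214 (86.3%, 81.5 to 90.0) a KO H3K27ac peak. The whole EGR1 list had 2.95% of peaks with no WT and 12.3% with no KO H3K27ac peak. In turn 239 of the 249 WT H3K27ac peaks overlapped an EGR1 peak, and 4.08% of the whole WT list did not. Of the 239 KO H3K27ac peaks 214 (89.5%) did, and 11.8% of the whole KO list did not. All 115 EGR1 peaks scoring 3 or more were in both H3K27ac lists, and under 2 the counts were 43 of 51 (84.3%) in WT and 25 of 51 (49.0%) in KO. The 6 EGR1 peaks in neither H3K27ac list scored at most 1.86.

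EGR1 scores followed the WT H3K27ac scores peak by peak. Over 237 matched peaks the EGR1 score minus the WT H3K27ac score had a median of -0.05 and quartiles of -0.18 and 0.05, and Spearman's rho was 0.985. The length difference had a median of -1 bp, and the centres lay a median of 2 bp apart, with 205 of 237 within 10 bp. Of the 10 highest WT H3K27ac peaks 10 were among the 10 highest of EGR1, and of the 20 highest 20 were. Over the 209 peaks matched in all 3 lists, the EGR1 score was nearer to the WT H3K27ac score at 159 and the KO H3K27ac score nearer at 45, and both distances share the WT H3K27ac value. The list from the EGR1 antibody in WT cells thus lay closer to the WT H3K27ac list than the KO H3K27ac list did, in overlap, score, length and centre. Genotype and library cannot be told apart here, since each genotype has 1 H3K27ac library.

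The place of the peaks along their genes was read from RefSeq gene spans, which do not separate exons from introns. Host genes were long when each gene was counted once, without weighting by length. The 153 protein-coding hosts had a median length of 110435 bp, against 17557 bp for the 20487 autosomal protein-coding genes, and 78 of them (51.0%, 43.1 to 58.8) exceeded 100 kb, against 11.2%. Protein-coding genes cover 40.9% of the autosomal span, and 34.6%, 34.8% and 35.2% of the autosomal peaks of WT H3K27ac, KO H3K27ac and WT EGR1 lay over one. The longest host was Lrp1b, a lipoprotein receptor gene of 2058309 bp, whose peak scored 4.52, 4.22 and 4.4. Nkain3 (669681 bp) scored 6.98, 7.06 and 7.01, Camk1d, a calmodulin-dependent kinase gene (421404 bp), 7.74, 7.33 and 7.47, and Kcnh1, a potassium channel gene (321016 bp), 6.0, 5.46 and 5.87. These 4 genes were chosen after their values were seen.

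**Figure D5:**
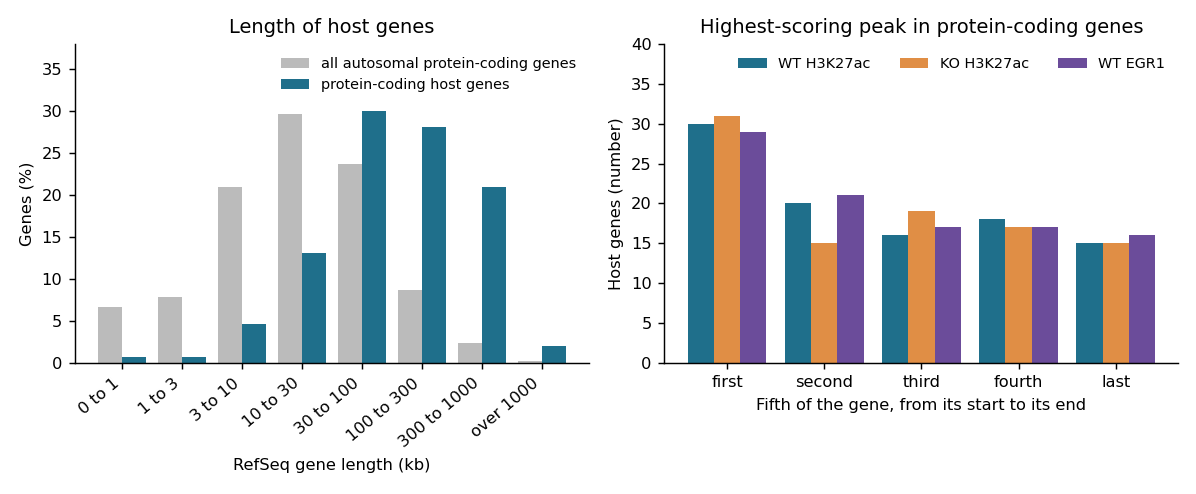
Left, RefSeq length in kb of the 153 protein-coding host genes and of all 20487 autosomal protein-coding genes, as % of genes; right, number of protein-coding host genes by which of 5 equal segments of the gene holds their highest-scoring peak, for genes with a known strand. Hosts over 100 kb make up 51.0% of hosts and 11.2% of all genes, and the first segment holds 30, 31 and 29 genes in WT H3K27ac, KO H3K27ac and WT EGR1.

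Along the gene, the peaks were spread over its whole length. Taking the highest-scoring peak of each protein-coding host with a known strand, 5 equal segments of the gene from its start held 30, 20, 16, 18 and 15 of 99 genes in WT H3K27ac. In KO H3K27ac they held 31, 15, 19, 17 and 15 of 97, and in WT EGR1 29, 21, 17, 17 and 16 of 100. The first segment held the most genes in each list. Counted by peak, the last segment held 27 of 118 in WT H3K27ac, and 12 of the 27 were the run in Tmem267. Of the pairs with a protein-coding gene, 13 of 148 (8.78%), 17 of 149 (11.4%) and 12 of 148 (8.11%) lay within 2 kb of either end.

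Start sites were rarely close. The centre lay within 1 kb of a RefSeq start site at 14 of 243 peaks of WT H3K27ac (5.76%, 3.46 to 9.44), at 14 of 232 for KO and at 14 of 242 for EGR1. Between genes the shares were 2.32%, 1.86% and 2.34%. The median distance to a start site was 24424 bp, 24331.5 bp and 23602.5 bp inside genes, against 33611 bp, 33713 bp and 33713.5 bp between them. The peaks were split by their distance to a gene, and a start site is an end of a gene. Neither comparison is therefore independent of that split. In 5 host genes the peak touched a start-site window of that gene itself, namely Hjurp, Gm13822, Gm4981, 3110070M22Rik and Gm15564. Hjurp scored 2.29, 2.06 and 2.24, and Gm15564 scored 7.36, 6.52 and 7.28.

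The authors' gene assignments and RefSeq spans differed for some hosts. Where RefSeq holds the assigned gene, 175 of 204 (85.8%), 173 of 198 (87.4%) and 173 of 203 (85.2%) peak and gene pairs overlapped by RefSeq coordinates. The peaks assigned to Fgfr2, a fibroblast growth factor receptor gene, lay 567532 bp from its RefSeq span in WT H3K27ac and scored 5.24, 5.72 and 5.24. Those assigned to Bcar3 lay 111142 bp away in WT H3K27ac, to Acvr1 19943 bp and to Phf21a 15446 bp. For these hosts the place inside the gene rests on the authors' annotation alone.

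Few genes of the lists drawn up for these cells held a peak. The 8 lists cover the dendritic cell response and identity, markers of other blood cells and housekeeping genes, and 4 of their 188 genes held a peak, and each of the 4 held one in every list of peaks. Among all 20487 autosomal protein-coding genes 153, or 0.747%, held one. Litaf was 1 of 25 genes in the list of NF-kB and MAPK feedback, Csf2ra, the GM-CSF receptor alpha chain, 1 of 25 genes of dendritic cell identity and maturation, Ank1 1 of 20 markers of other blood cells and Eef2 1 of 20 housekeeping genes. None of 27 LPS-induced cytokines and chemokines, 25 interferon-response genes, 24 genes of the EGR family and the immediate early response, or 25 genes of glycolysis and lactate handling held a peak. Egr1 itself was not among the host genes, so these peaks give no check of the EGR1 deficiency. All 8 lists were drawn up with earlier results of these data known, so the 4 genes are not an independent count. Litaf and Ank1 were put in these lists with their peaks known. Csf2ra scored 2.26 in WT H3K27ac, 1.91 in KO and 2.17 in EGR1.

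The labelled cell type could not be checked from these peaks. Of 14 dendritic cell markers 1, Csf2ra, had a peak, and 0 of 4 macrophage, 0 of 5 neutrophil and 0 of 3 lymphocyte markers had one. Some other hosts have known roles in myeloid cells or signalling and were chosen after their values were seen. Sirpa, an inhibitory receptor of myeloid cells, held a peak on chromosome 2 (129603544 to 129603869) scoring 2.44, 2.09 and 2.4. Atf2, a stress-activated transcription factor gene, scored 4.17, 3.7 and 4.22, and Map2k6, a kinase gene upstream of p38, scored 3.68, 4.27 and 3.81. Il31ra, a cytokine receptor gene, scored 5.58, 5.35 and 5.44. Each was present in every list, and KO was lowest at Sirpa, Atf2 and Il31ra and highest at Map2k6.

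Peaks inside genes resembled those between genes in score. The median score was 2.93 in WT and 2.92 in KO H3K27ac, and 2.82 in the EGR1 list, against 2.75, 2.97 and 2.77 for 358, 335 and 355 autosomal peaks between genes. Scores of 3 or more made up 48.2%, 47.3% and 46.4% inside genes and 45.8%, 49.9% and 47.0% between them. In all 3 lists were 211 peaks of each list, or 84.7%, 88.3% and 85.1%, against 81.8%, 87.5% and 82.8% between genes. Peaks in a single list numbered 5 in the WT H3K27ac list, 20 in that of KO and 6 in that of EGR1, or 2.01%, 8.37% and 2.42%. Between genes the shares were 3.35%, 8.06% and 1.97%, again highest in KO. By chromosome the counts ran from 4, 3 and 4 on chromosome 15 to 34, 26 and 35 on chromosome 1.

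Peaks beside the limits of the rule were mostly low in score. The autosomal peak nearest to a gene without lying in it was beside Gm25747 on chromosome 12, 9 bp away with a score of 1.92 in WT H3K27ac, 15 bp and 1.87 in KO H3K27ac and 3 bp and 1.92 in WT EGR1. Peaks outside but within 100 bp of a gene numbered 3 of 358, 1 of 335 and 3 of 355. Among the 5 nearest in KO H3K27ac, 1 scored high, at 15.87, and lay 215 bp from Gm13532. The peak inside a gene with the highest start below 3500000 bp was in Drg1 (start 3198327 in WT H3K27ac), with scores of 2.11, 1.76 and 1.81. The lowest start above it was 4338944 on chromosome 3 in n-R5s194 for WT H3K27ac, and in Ppp1r9a on chromosome 6 for KO H3K27ac (4923789, score 2.1) and WT EGR1 (4923761, score 2.42).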

How the data were processed

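Called peaks of 3 chromatin immunoprecipitation libraries were analysed, grouped by sample title with 1 library per group. The authors deposited 1 list of called peaks per library on mm10, per the submitters' processing notes. Per the file headers, each peak carries a region, a length, the authors' peak shape score and p-value (0.05 or lower), and the distance in bp to the neighbouring gene on each side. Neither the aligner nor the peak caller, the filters or a correction for input is stated in these sources. Both the peaks and the gene lists were chosen with earlier results of these data known.

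Peaks sharing at least 1 bp were called overlapping, and peaks with exactly 1 partner in each direction were matched. These functions were tested on simulated data. Shares carry 95% Wilson intervals. Types and spans came from RefSeq GRCm38.p6, where 172 of 214 host names matched a symbol, 5 an older symbol and 37 none. Start sites, promoter windows and the miRNA came from RefSeq tables of the same assembly. Start sites on chromosome 18 were not used here, so peaks there have no start-site distance. No genome sequence was used here.

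Genes were named by rule: the 10 hosts with the highest score and the 10 with the most peaks in WT H3K27ac, the 20 highest-scoring protein-coding hosts, up to 8 protein-coding hosts listed in a single H3K27ac genotype in each direction, members of the gene lists, and hosts with a peak over a promoter window. Genes with no new value were left out, and others are marked in the text. Alternatives changed the overlap, the score or p threshold, the gene coordinates, the start minimum and the unit (peaks or loci). Tables were made with pandas 2.3.3 and numpy 2.4.6 under Python 3.11.15, rank correlations with scipy 1.17.1 and figures with matplotlib 3.10.9.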

Additional observations from a re-analysis of the deposited data

How the results depend on the processing

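Of the other settings listed for these results 39 left the value within its interval, or the count within 1.5 times, and 9 did not. With a score of 3 or more required in both lists, the overlap rose to 90.8% (WT H3K27ac in KO), 96.5% (KO in WT), 99.1% (EGR1 in WT H3K27ac) and 93.0% (EGR1 in KO H3K27ac). Against all peaks of the other list, an alternative chosen after seeing the data, it was 100% for each of the 4. At a score of 3 or more, 87 host genes were in all 3 lists, 9 in WT and not KO H3K27ac and 2 in KO and not WT, since the threshold leaves fewer peaks. With hosts taken from RefSeq coordinates there were 291 hosts in place of 214, and 221 in place of 171 were in all 3 lists. By these coordinates 37 genes were in WT and not KO H3K27ac and 26 in KO and not WT. The cause of these higher counts was not tested. Requiring 50% of each peak, a p of 0.01 or lower or loci merged within 10 kb moved no overlap share beyond its interval. Of 33 named protein-coding hosts with a WT H3K27ac peak, 29 kept their highest score by RefSeq coordinates and 4 had no peak inside the gene. No paired analysis was possible because each group has 1 library and the lists hold no counts. Depth is unknown, so how many peaks near the threshold were missed in a list cannot be stated.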
